A study of Mus musculus with 265 samples.

Results

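Solute carriers are the membrane proteins encoded by the Slc gene families, and their accessible chromatin was followed in a mouse pre-B line at 0 hours and at 24 hours of Ikaros induction. A region of the single-cell ATAC-seq matrix was counted as a solute carrier region if its midpoint lay within 50 kb of the start of a protein-coding gene whose symbol is Slc followed by a digit, and no other protein-coding gene started closer (GENCODE vM21, mm10). The glucose transporter genes Slc2a1, Slc2a3 and Slc2a6 were left out. This gave 285 of 20103 regions, which were assigned to 170 of the 368 annotated solute carrier genes. Of these regions, 139 lay within 1 kb of the start site and are called promoter regions, and 146 lay between 1 kb and 50 kb away and are called distal regions. Being nearest in sequence is the only link between a region and its gene, and 11 of the promoter regions had the start site of another protein-coding gene within 1 kb as well.

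The cells were B3 cells, a mouse pre-B cell line that carries Ikaros fused to the ERt2 ligand-binding domain, so that Ikaros enters the nucleus when 4-hydroxytamoxifen (4-OHT) is given. All groups share this line and its inducible Ikaros. The 0-hour cells were taken before induction, and the 24-hour cells after 4-OHT at 20 mM as the labels give it, with a second dose at about 12 hours. No source used here says whether the line is a single clone. Each time-point was captured in 2 Fluidigm C1 runs, with 48 (run 1) and 47 cells (run 2) at 0 hours and 60 (run 1) and 72 cells (run 2) at 24 hours in the matrix. Nothing says whether the 2 runs of a time-point came from separate cultures, so the tests measure only the spread between these runs, which may be technical.

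Cells cannot move most small molecules through lipid membranes without carrier proteins. Amino acid carriers such as the Slc7a5 and Slc3a2 heterodimer bring in leucine and other building blocks, hexose carriers of the Slc2 family bring in sugars, nucleotide sugar carriers of the Slc35 family feed glycosylation in the Golgi, and the Slc25 family exchanges metabolites across the inner mitochondrial membrane. In B cell precursors, Ikaros is known to act with other B-lineage factors on genes of glucose uptake and energy metabolism, and nutrient carriers are induced when lymphocytes grow. The regions were therefore grouped by what the carriers transport, as amino acid (27 genes), sugar (27 genes), mitochondrial (33 genes), ion (44 genes) and other carriers (39 genes).

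The runs held between 92639 and 164357 counts, and single cells between 334 and 7940. A solute carrier promoter region had signal in a median of 19 of the 227 cells, and a distal region in a median of 10, the same medians as all other promoter and distal regions. Regions were assigned to 11 of 12 pre-B markers, and their summed signal was 1928 and 1640 CPM (counts scaled to the TMM-adjusted total of the run) at 0 hours and 2086 and 1577 CPM at 24 hours. No region was assigned to Rag1. Only 2 of 8 T cell markers (31.3 to 72.8 CPM over the runs), 2 of 8 myeloid markers and 1 of 8 erythroid markers (20.9 to 97.0 CPM) had a region, and none was assigned to Cd3e, Cd4, Cd8a, Itgam, Csf1r or Gata1. The summed signal of the myeloid markers was 182 and 219 CPM at 0 hours and 113 and 80.7 CPM at 24 hours, and its part in the results was not tested.

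The classes differed in how many of their genes had an accessible region at all. Mitochondrial carriers led, with a promoter region at 30 of 47 annotated genes (63.8%) and any region at 33 of 47 (70.2%). A promoter region was found at 22 of 52 sugar carrier genes (42.3%), 30 of 97 ion carrier genes (30.9%), 16 of 65 amino acid carrier genes (24.6%) and 21 of 107 genes of other carriers (19.6%). Over all carriers the share was 32.3%, against 34.4% of all 21924 protein-coding genes. The mitochondrial share is high beside these values, but no test was run on it, since which genes have a region depends on the depth of the peak calls.

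**Figure D1:**
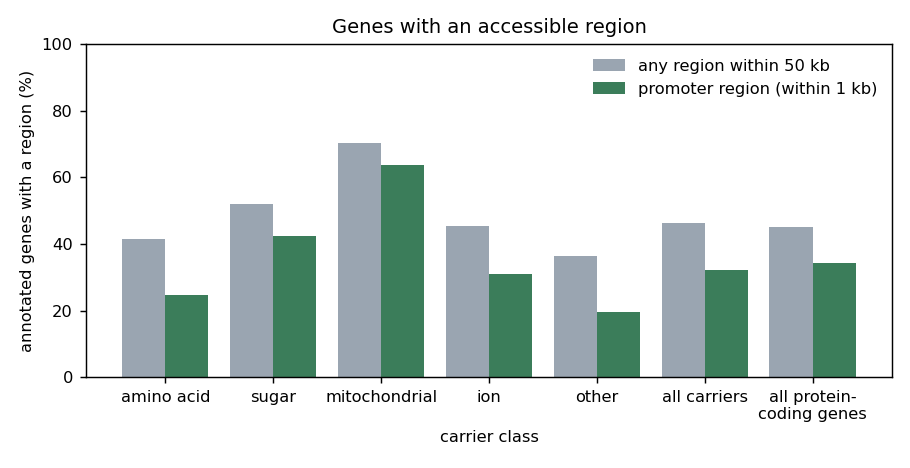
Percent of annotated genes with an accessible region (y axis) for each carrier class, all carriers and all protein-coding genes (x axis). Grey bars count any region within 50 kb and green bars a promoter region within 1 kb. Mitochondrial carriers stand highest in both, at 70.2% and 63.8%.

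The signal per length differed less between classes. The median promoter region had 53.0 CPM per 100 bp among ion carriers, 48.2 among mitochondrial carriers, 46.5 among other carriers, 34.6 among amino acid carriers and 26.2 among sugar carriers, beside 39.6 over all other promoter regions. The range within each class was far wider than these differences, for example 12.6 to 130 CPM per 100 bp among mitochondrial promoters. The 3 promoters with the most signal in the mitochondrial class were those of Slc25a42, which carries coenzyme A, Slc25a47, a carrier best known from liver, and Slc25a25, an ATP-magnesium and phosphate exchanger. Slc25a42 had 38 and 17 counts at 0 hours and 23 and 27 at 24 hours, and Slc25a47 had 28, 18, 22 and 23 counts in the same order. Neither differed beyond the spread between runs, with log2 changes of -0.10 (SE 0.49) and -0.04 (SE 0.50) and adjusted p = 0.959 and 0.987 (edgeR quasi-likelihood test, Benjamini-Hochberg over all regions).

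The promoter sequences of the carriers were searched for short motifs in windows of 150 bp centred on each region, on both strands. The E-box CACGTG, which Myc, Mitf and related factors bind, was present in 20 of 139 carrier promoter windows (14.4%) and in 591 of 8647 other promoter windows (6.83%). These 20 regions lay at 6 ion, 5 mitochondrial, 4 amino acid and 1 sugar carrier genes and at 3 genes of other carriers, such as the proton-coupled amino acid carrier Slc36a1, the glutamine carrier Slc38a1, the phosphate carrier Slc20a1 and the mitochondrial S-adenosylmethionine carrier Slc25a26. Among distal windows the E-box was in 9 of 146 carrier regions (6.16%) and 3.94% of the others. The sequences of those 4 promoters, without any exon of a protein-coding gene and read 5′ to 3′ on the strand of the gene, are shown because they carry this motif, with the E-box and the Ikaros core GGGAA, or its reverse complement TTCCC, in capitals.
Slc36a1 promoter, chr11:55204214-55204349, plus strand: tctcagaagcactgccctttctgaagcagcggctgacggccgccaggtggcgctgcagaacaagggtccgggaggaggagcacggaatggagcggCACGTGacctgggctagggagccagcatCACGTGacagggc
Slc38a1 promoter, chr15:96643137-96643286, minus strand: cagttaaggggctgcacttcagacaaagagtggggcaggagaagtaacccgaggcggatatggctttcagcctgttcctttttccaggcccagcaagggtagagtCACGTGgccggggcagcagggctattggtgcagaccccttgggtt
Slc20a1 promoter, chr2:129198622-129198760, plus strand: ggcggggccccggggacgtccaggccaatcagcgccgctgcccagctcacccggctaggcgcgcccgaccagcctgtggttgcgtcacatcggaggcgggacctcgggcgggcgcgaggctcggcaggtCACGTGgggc
Slc25a26 promoter, chr6:94500160-94500304, plus strand: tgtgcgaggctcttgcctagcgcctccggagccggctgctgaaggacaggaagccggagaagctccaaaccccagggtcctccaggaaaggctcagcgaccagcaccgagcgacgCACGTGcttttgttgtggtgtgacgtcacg

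The Slc36a1 promoter held 2 E-boxes and the other 3 held 1 each, and none of these 4 stretches held the Ikaros core. Across the carriers, the Ikaros core was in 43 of 139 promoter windows (30.9%) and in 63 of 146 distal windows (43.2%), against 38.1% and 40.0% of the other promoter and distal windows. The ETS core CCGGAAG was in 12.9% of carrier and 16.2% of other promoter windows, and the NRF1 core CGCATGCG in 1.44% and 3.03%. The amino acid response element TGATGNAA, named for genes induced by amino acid shortage, was in no carrier promoter window, in 0.740% of the other promoter windows and in 3 carrier distal windows (2.05%, against 1.53% of the others). Matches to GGGAA and CCGGAAG can overlap at their edges, and a match says only that these letters were present.

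Whether accessibility at the carriers changed between 0 and 24 hours was asked first region by region. No solute carrier region passed the test in either direction at an adjusted p of 0.05 (edgeR quasi-likelihood test on counts summed per run, Benjamini-Hochberg over 20103 regions), where 11 of all regions did (0.0547%). At an unadjusted p under 0.05, 16 carrier regions were higher at 24 hours (5.61%, where 5.11% of all regions were) and 18 were higher at 0 hours (6.32%, where 7% of all regions were), so the carriers stood close to the background. DESeq2 called none of all 20103 regions, and at an unadjusted p under 0.05 it had 6 carrier regions higher at 24 hours (2.11%, beside 2.25% of all regions) and 7 higher at 0 hours (2.46%, beside 3.15%). Summing the counts over the regions of a gene, with promoter and distal regions apart, also gave no call among 212 carrier features, where 4 of 12302 features passed (0.0325%). There, 16 carrier features had an unadjusted p under 0.05 in favour of 24 hours and 13 in favour of 0 hours, while 6.67% and 5.67% of all features did.

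These counts depended on 24-hour run 1. Without 24-hour run 1, the test called 9 carrier regions, 6 higher and 3 lower at 24 hours, (3.16% of the carrier regions) and 3.96% of all regions. This left 24-hour run 2 alone, assumed to vary as the 0-hour runs do. The 6 were promoters of Slc35a1, Slc25a51, Slc30a9, Slc12a4, Slc25a20 and Slc25a53, and the 3 were distal regions of Slc38a1, Slc22a12 and Slc25a51. At the level of genes it called 10 carrier features higher and 4 lower, 6.60% of them, beside 5.8% of all features. Leaving out any other run gave no call. With library totals in place of TMM scaling, the Slc25a53 promoter was the 1 carrier region called (adjusted p = 0.0495), or 0.351% of the carrier regions, beside 0.164% of all regions.

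Promoter and distal regions differed in direction, for the carriers as for all regions. An unadjusted p under 0.05 favoured 24 hours at 14 carrier promoters (10.1%, beside 7.68% of all promoter regions) and 0 hours at 2 (1.44%, beside 1.91%). Among carrier distal regions it favoured 24 hours at 2 (1.37%, beside 3.2% of all distal regions) and 0 hours at 16 (10.96%, beside 9.88%). The median log2 change was 0.37 over the 139 carrier promoters, of which 90 were above 0, and -0.52 over the 146 carrier distal regions, of which 47 were above 0. All other promoter regions had a median of 0.33 and all other distal regions a median of -0.43. Setting the 7 distal regions without a count at 24 hours to their bound left the carrier medians at 0.37 and -0.52. Both runs of 24 hours lay above both of 0 hours at 39 carrier promoters (28.1%, where 28% of all promoter regions did), and the opposite held at 16 (11.5%, where 13.1% did). Among carrier distal regions these numbers were 15 (10.3%, where 13.3% of all distal regions did) and 55 (37.7%, where 33.2% did). Scaled by the number of cells instead, which moved the median of all regions from -0.06 to -0.51, the carrier promoters had a median of -0.11 and the distal regions of -0.97. Relative to the median of all regions, the promoters were at 0.43 under TMM and 0.40 per cell, and the distal regions at -0.46 under both.

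**Figure D2:**
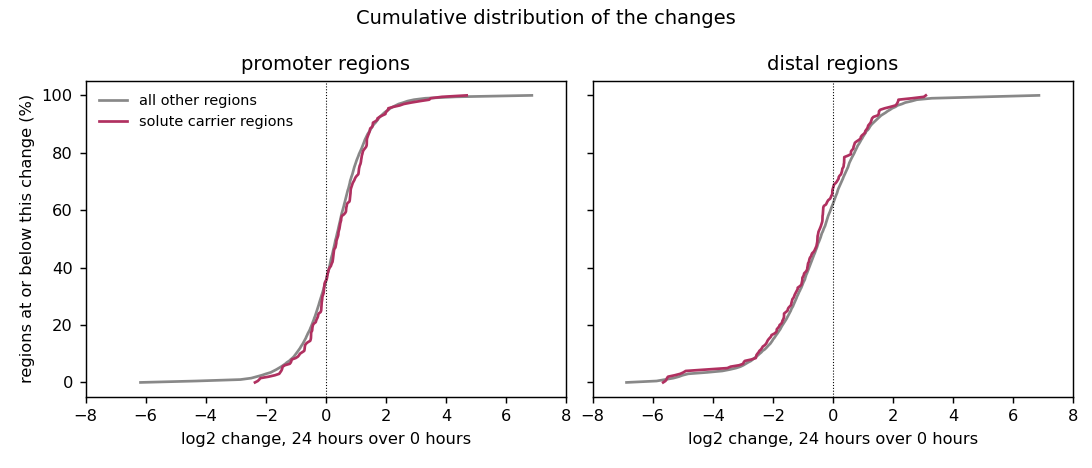
Cumulative percent of regions (y axis) at or below a given log2 change of 24 hours over 0 hours (x axis), for promoter regions on the left and distal regions on the right. The red line holds the solute carrier regions (139 and 146) and the grey line all other regions (8647 and 7827). The carrier lines follow the grey lines, with medians of 0.37 and 0.33 for promoters and -0.52 and -0.43 for distal regions.

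At the limits of the rule, the outermost carrier region lay 49144 bp from the start of Slc45a4 and had a log2 change of -1.70, and the next region beyond 50 kb lay 50449 bp from Slc23a2 and had 0.23. The promoter region furthest out lay 958 bp from Slc44a2 (log2 0.26), and the nearest distal region 1022 bp from Slc5a5 (log2 -0.71).

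Summed over all carriers, promoter regions took 0.850% and 0.758% of the signal at 0 hours (exact 95% intervals 0.806 to 0.895 and 0.703 to 0.816) and 0.954% and 1.16% at 24 hours (0.901 to 1.01 and 1.10 to 1.21). Intervals cover counting error only. Both 24-hour runs were above both 0-hour runs, with means of 0.804% ± 0.065 and 1.06% ± 0.14 (SD, n = 2 runs) and a log2 ratio of 0.39, which became -0.05 per cell instead of per total signal. Distal regions took 0.635% and 0.680% at 0 hours and 0.514% and 0.417% at 24 hours, with means of 0.657% ± 0.032 and 0.465% ± 0.069 and a log2 ratio of -0.50. All other promoter regions went from a mean of 49.0% ± 1.7 to 61.3% ± 5.6 (log2 0.32), and all other distal regions from 34.5% ± 0.79 to 27.3% ± 3.5 (log2 -0.34). As a share of all promoter signal, carriers took 1.67% and 1.56% at 0 hours and 1.64% and 1.74% at 24 hours, and these runs overlapped. As a share of all distal signal they took 1.83% and 1.90%, then 1.69% and 1.65%, which did not overlap.

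**Figure D3:**
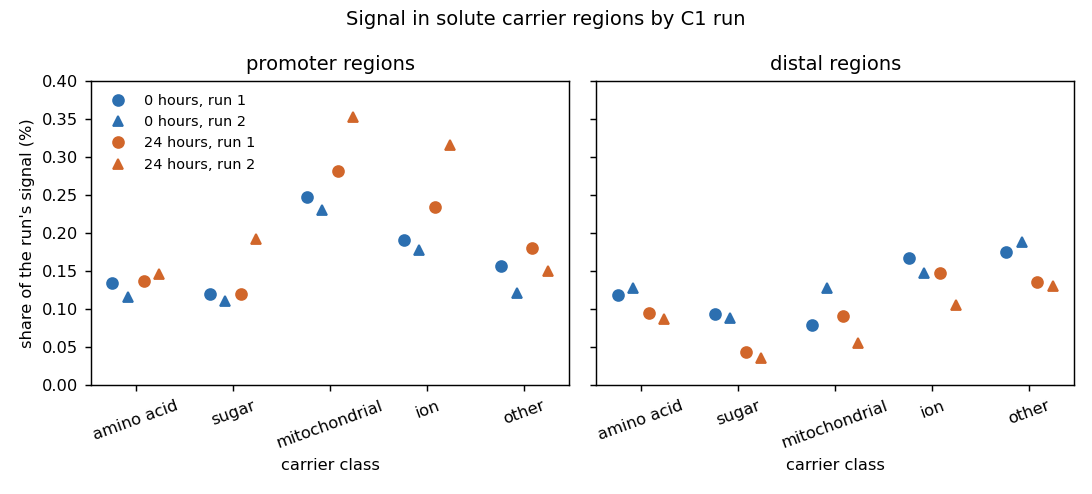
Share of a run's signal in percent (y axis) in promoter (left) and distal regions (right) of each carrier class (x axis), with 1 point per C1 run, blue for 0 hours and orange for 24 hours, circles for run 1 and triangles for run 2. In sugar distal regions the 24-hour runs, at 0.0441% and 0.0358%, lie below the 0-hour runs at 0.0943% and 0.0885%. In ion promoters they lie above, at 0.235% and 0.316% against 0.190% and 0.178%.

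The 24 promoter regions of amino acid carriers took 0.134% and 0.117% of the signal at 0 hours and 0.137% and 0.146% at 24 hours, a log2 ratio of 0.17 that became -0.28 per cell. As a share of all promoter signal they took 0.264% and 0.240% and then 0.235% and 0.220%, a log2 ratio of -0.15, with both 24-hour runs below both 0-hour runs. At the promoter of Slc1a5, a glutamine and neutral amino acid exchanger, 8 and 2 counts at 0 hours stood beside 15 and 17 at 24 hours. Its log2 change was 1.71 (SE 0.73, adjusted p = 0.317). The promoter of Slc7a5, the light chain of the large neutral amino acid transporter, had 3 and 2 counts and then 9 and 13, a log2 change of 2.07 (SE 0.93, adjusted p = 0.339). At both genes the runs of the time-points did not overlap, and neither change passed the test. In this class the runs were apart in favour of 24 hours at 3 of 24 promoter regions (12.5%, beside 28% of all promoter regions). They were apart in favour of 0 hours at 3 (12.5%, beside 13.1%).

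The partner of Slc7a5, the heavy chain Slc3a2, had 13, 4, 2 and 15 counts at its promoter (order of runs: 0 hours 1 and 2, 24 hours 1 and 2, kept from here on), and the 24-hour runs were further apart than the time-points (log2 0.04, SE 0.81). Slc7a6, another light chain, had 6, 4, 8 and 5 counts. The 2 promoter regions of Slc43a2, an L-type carrier, had log2 changes of 0.26 and 0.53 with SE of 1.04 and 0.84. Of the 3 promoters with the most signal in this class, Slc7a1, the cationic amino acid carrier, had 20, 7, 13 and 6 counts (log2 -0.43), the lysosomal arginine sensor Slc38a9 had 27, 10, 16 and 16 (log2 -0.15), and Slc38a10 had 17, 8, 12 and 37 (log2 0.97).

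The glutamine carriers Slc38a1 and Slc38a2 lie near each other on chromosome 15. A region 12001 bp upstream of Slc38a1 had 15, 13, 9 and 0 counts, a log2 change of -1.63 (SE 0.83, adjusted p = 0.422), and it was among the 9 regions called without 24-hour run 1. Another region, 23928 bp upstream of Slc38a1, went the other way, with 1 count over both 0-hour runs and 5 over both 24-hour runs. A region 10214 bp upstream of Slc38a2 had 11, 7, 3 and 25 counts, so that the 24-hour runs were the lowest and the highest of the 4. The Slc38a2 promoter region 716 bp into the gene had 3 counts at 0 hours and 10 at 24 hours. The one 565 bp upstream had 2 and then 5. Over the 29 amino acid distal regions, the share went from 0.119% and 0.127% to 0.0946% and 0.0877%, a log2 ratio of -0.43 that was -0.09 as a share of all distal signal, where the runs overlapped.

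Sugar carriers had the largest difference of the 5 classes, at their distal regions. Their 20 distal regions took 0.0943% and 0.0885% of the signal at 0 hours (exact 95% intervals 0.0801 to 0.110 and 0.0704 to 0.110) and 0.0441% and 0.0358% at 24 hours (0.0331 to 0.0575 and 0.0266 to 0.0470). The mean was 2.29 times higher at 0 hours (log2 -1.20), and of the 20 regions 2 had a log2 change above 0 (10%, beside 37.6% of all distal regions), with a median of -0.91. As a share of all distal signal the log2 ratio was -0.86, from 0.273% and 0.247% to 0.145% and 0.142%. Slc45a4 held 34.8% of these counts, and without it the log2 ratio was -0.96. No sugar region passed the test by itself, and the class was not tested as a group.

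The 5 distal regions of Slc45a4, a family member classed here with the sugar carriers although its substrate is less certain, were summed to 49 and 39 counts at 0 hours and 10 and 21 at 24 hours. The log2 change of this sum was -1.55 (SE 0.45, adjusted p = 0.133 over 12302 features). The region 22571 bp upstream had 20, 15, 3 and 8 counts (log2 -1.69, SE 0.70), and the region 16261 bp into the gene had 8, 8, 0 and 2 counts. The promoter had 23, 8, 8 and 19 counts and its time-points overlapped.

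Other distal regions of this class were at 0 in both 24-hour runs. The region 6617 bp downstream of the start of Slc35e1, an orphan of the nucleotide sugar family, had 10 and 3 counts at 0 hours, and its signal was at least 4.47-fold higher there, against a floor of 3 counts over both 24-hour runs. The region 1776 bp upstream of Slc2a5, the fructose transporter, had 9 and 3 counts and was at least 4.13-fold higher at 0 hours. Their adjusted p-values were 0.220 and 0.238 by the same test. Every region of the matrix had signal in at least 5 cells, and these regions met that minimum through 0-hour cells only. Their values are therefore descriptions of regions selected by the time-point where they are high. Sugar promoters took 0.120% and 0.111% and then 0.120% and 0.193%, so that only 24-hour run 2 stood apart (log2 0.43, with 0.05 without that run and -0.0108 per cell). Among them, the 3 promoter regions of Slc35e2 together had 14, 7, 30 and 27 counts (log2 1.45, SE 0.53, adjusted p = 0.237), Slc35b4 had 16, 14, 17 and 25, the Golgi carrier Slc35b1 had 12, 5, 14 and 15, and Slc37a4, the glucose 6-phosphate carrier of the endoplasmic reticulum, had 4, 5, 10 and 13. The promoter of Slc35e1 had 31, 11, 5 and 24 counts, and its time-points overlapped.

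Mitochondrial carriers held the regions with the smallest p-values. The promoter of Slc25a53, a carrier whose substrate is not established, had 1 and 0 counts at 0 hours and 6 and 26 at 24 hours. The pooled ratio was 31.01 (exact 95% counting interval 5.18 to 1263), and the log2 change of 4.68 (SE 1.14) had an adjusted p of 0.0898 in edgeR. The promoter of Slc25a51, the mitochondrial NAD carrier, had 8 and 3 counts and then 14 and 46, a log2 change of 2.43 (SE 0.63, adjusted p = 0.114). The promoter of Slc25a20, which exchanges carnitine and acylcarnitine for fatty acid oxidation, had 3 and 0 counts and then 8 and 27, a ratio of 11.3 (3.56 to 57.5) and a log2 change of 3.47 (SE 0.93, adjusted p = 0.125). At all 3 the runs of the time-points did not overlap, and 24-hour run 2 held most of the counts. Without that run the log2 changes were 3.39, 1.43 and 2.45 for Slc25a53, Slc25a51 and Slc25a20. Without 0-hour run 1, Slc25a53 and Slc25a20 had no count at 0 hours, and Slc25a51 was at 2.84. Their sequences outside exons are shown because they are the promoters nearest to the threshold.
Slc25a53 promoter, chrX:137038303-137038424, minus strand: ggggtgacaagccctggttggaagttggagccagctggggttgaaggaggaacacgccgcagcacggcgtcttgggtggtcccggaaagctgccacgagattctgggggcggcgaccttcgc
Slc25a51 promoter, chr4:45408845-45408993, minus strand: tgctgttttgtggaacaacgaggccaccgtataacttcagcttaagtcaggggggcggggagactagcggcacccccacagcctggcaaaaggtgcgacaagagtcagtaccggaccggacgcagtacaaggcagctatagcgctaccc
Slc25a20 promoter, chr9:108662010-108662087, plus strand: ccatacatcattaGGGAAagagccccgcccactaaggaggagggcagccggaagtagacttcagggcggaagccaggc

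Capitals mark the Ikaros core, which was present once upstream of Slc25a20 and in neither of the other stretches, and no E-box was present in these 3. The log2 changes of the ADP/ATP carriers were smaller or negative, and their difference from these 3 was not tested. Slc25a4 had 20, 4, 14 and 12 counts at its promoter (log2 0.22, SE 0.65), and Slc25a5 had 8, 6, 4 and 1 (log2 -1.45, SE 1.06). The phosphate carrier Slc25a3 had 19, 8, 23 and 33 counts (log2 1.08, SE 0.53, adjusted p = 0.408). The 2 promoter regions of the citrate carrier Slc25a1 had 7, 0, 6 and 11 counts and 8, 4, 11 and 1 counts, and 1 promoter region of this gene has more than 1 copy in the genome. The 2 promoter regions of Slc25a25, which overlap an untranslated exon of Naif1, had log2 changes of 0.51 and 0.68 with SE of 0.78 and 0.54.

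Over the 34 mitochondrial promoter regions the share went from 0.248% and 0.230% to 0.281% and 0.353%, a log2 ratio of 0.41 that became -0.03 per cell and 0.08 as a share of all promoter signal. The 16 distal regions took 0.0791% and 0.128%, then 0.0914% and 0.0561%, and overlapped. Slc25a54 held 32.4% of these distal counts through 1 region 3692 bp upstream of its start, with 43, 46, 31 and 23 counts in 79 cells, the most cells of any carrier region (log2 -0.80, adjusted p = 0.508). The 2 distal regions of Slc25a26 together had 5, 7, 25 and 16 counts (log2 1.70, SE 0.66, adjusted p = 0.269), and 1 of them has a second copy in the genome.

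The 31 promoter regions of ion carriers took 0.190% and 0.178% of the signal at 0 hours and 0.235% and 0.316% at 24 hours (log2 0.58, and 0.14 per cell), and 24 of the 31 had a log2 change above 0 (77.4%, beside 64.6% of all promoter regions), with a median of 0.70. As a share of all promoter signal they took 0.373% and 0.367% and then 0.403% and 0.476%, and these runs did not overlap (log2 0.25). The region with the smallest p among ion promoters was in an untranslated exon of Slc39a14, a zinc and iron importer, with 2, 0, 15 and 9 counts, a ratio of 11.6 (2.89 to 102) and a log2 change of 3.49 (SE 1.09, adjusted p = 0.188). It had no count at 0 hours without run 1, and was at 2.86 without 0-hour run 2. Among the other zinc carriers were Slc30a1, the plasma membrane zinc exporter, with 12, 5, 22 and 21 counts (log2 1.36, SE 0.60, adjusted p = 0.329), Slc30a5 with 26, 10, 16 and 40 counts (log2 0.66, SE 0.52), and Slc39a1 with 7, 9, 14 and 13 counts (log2 0.67, SE 0.69). The sulfate carrier Slc26a2 had 21, 4, 6 and 38 counts, with runs of 1 time-point further apart than the time-points. The bicarbonate carrier Slc4a7 had 16, 10, 15 and 20 counts at its promoter. Its distal region 20502 bp upstream had 9 counts over both 0-hour runs and 0 over both 24-hour runs. The one 17323 bp upstream had 7 and then 1. The iron importer Slc11a2 had only a distal region, 18667 bp upstream, with 4, 0, 6 and 3 counts.

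Slc20a1, which imports phosphate, had a promoter region and 3 upstream regions. The promoter had 15 and 9 counts at 0 hours and 23 and 29 at 24 hours, a log2 change of 1.10 (SE 0.55, adjusted p = 0.406). The region 14846 bp upstream had 24 and 13 counts and then 3 and 4, a log2 change of -2.35 (SE 0.75, adjusted p = 0.191). The region 18652 bp upstream had 5 and 7 counts and then 0 and 1. The region 22942 bp upstream had 8 and 0 counts and then 2 and 3, and its time-points overlapped. Summed over the 3 upstream regions, Slc20a1 had 37, 20, 5 and 8 counts (log2 -2.10, SE 0.58, adjusted p = 0.105). At the promoter and at these sums the time-points did not overlap, in opposite directions, and neither passed the test. The sequences of these 2 upstream regions and of the largest upstream region of Slc45a4 are shown because they are distal regions with low signal at 24 hours.
Slc20a1 region 14846 bp upstream, chr2:129183847-129183990, plus strand: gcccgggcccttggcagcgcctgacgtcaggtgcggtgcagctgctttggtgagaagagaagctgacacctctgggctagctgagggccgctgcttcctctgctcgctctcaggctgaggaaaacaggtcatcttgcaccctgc
Slc20a1 region 18652 bp upstream, chr2:129180060-129180165, plus strand: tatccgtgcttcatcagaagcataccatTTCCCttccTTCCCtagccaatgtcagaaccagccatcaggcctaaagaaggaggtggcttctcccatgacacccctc
Slc45a4 region 22571 bp upstream, chr15:73668261-73668405, minus strand: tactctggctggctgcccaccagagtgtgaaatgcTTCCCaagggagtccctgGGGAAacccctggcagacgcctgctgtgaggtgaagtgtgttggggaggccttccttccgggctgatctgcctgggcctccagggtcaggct

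The Slc20a1 region 18652 bp upstream and the Slc45a4 region each held the Ikaros core 2 times, in capitals, and the Slc20a1 region 14846 bp upstream held none. Distal carrier regions with the core had a median log2 change of -0.65 (63 regions) and those without of -0.43 (83 regions), beside -0.60 and -0.33 over all other distal regions. For promoters the medians were 0.19 (43 regions) and 0.43 (96 regions), beside 0.26 and 0.37. Carrier promoters with an E-box had a median of 0.68 (20 regions) and those without of 0.35 (119 regions), beside 0.43 and 0.31 over all other promoters. The share of carrier promoters above 0 was 65.0% (13 of 20) with an E-box and 64.7% (77 of 119) without. These medians are descriptions, and no difference between them was tested.

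**Figure D4:**
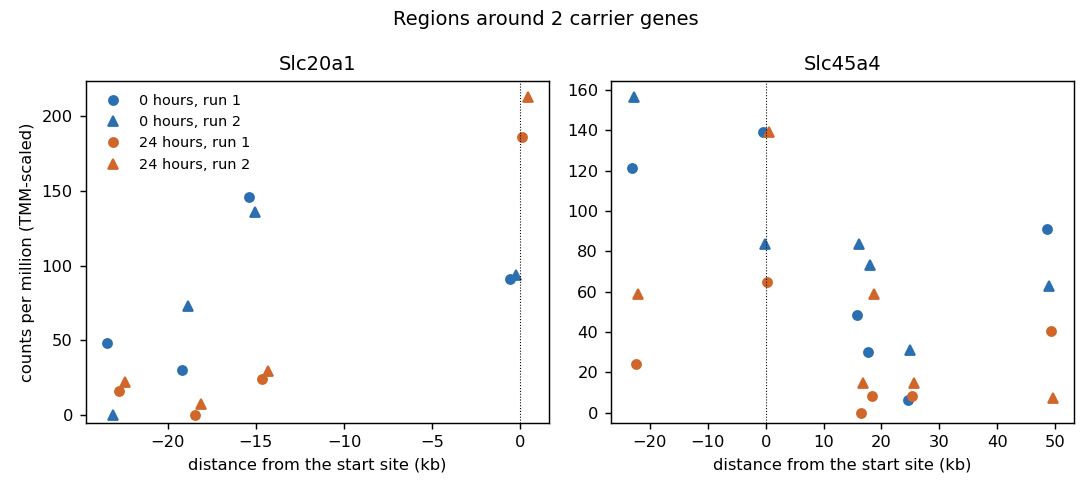
Signal in CPM (y axis), of every region assigned to Slc20a1 (left) and Slc45a4 (right) against its distance from the start site in kb (x axis), with 1 point per C1 run, blue for 0 hours and orange for 24 hours. The points of a region are spread slightly sideways so that they can be told apart. At Slc20a1 the 24-hour runs reach 186 and 213 CPM at the promoter, above 91.0 and 94.0 at 0 hours, and 24.3 and 29.3 CPM at 14846 bp upstream, below 146 and 136.

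Among the other ion carriers' distal regions, 1 was higher in both 24-hour runs with a small p. It lay 19503 bp downstream of the start of Slc4a3, an anion exchanger, with 6, 2, 15 and 21 counts (log2 2.17, SE 0.74, adjusted p = 0.219). Its sequence, shown for that reason, holds an E-box in capitals.
Slc4a3 region 19503 bp downstream, chr1:75565700-75565839, plus strand: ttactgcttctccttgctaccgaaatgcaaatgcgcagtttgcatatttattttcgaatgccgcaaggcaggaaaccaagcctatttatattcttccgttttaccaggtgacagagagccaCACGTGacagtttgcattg
A pair of regions was at 0 in both 24-hour runs and among the 5 with the smallest p in favour of 0 hours. The region 28910 bp upstream of the zinc importer Slc39a10 had 6 and 5 counts, and the intronic region 7986 bp into the iodide carrier Slc5a5 had 7 and 4 counts. Each was at least 3.78-fold higher at 0 hours, with adjusted p = 0.241 and 0.249 (edgeR). Both met the minimum of 5 cells with signal through 0-hour cells only, so these values are descriptions of regions selected by that time-point. Over all 36 ion distal regions the share went from 0.167% and 0.148% to 0.148% and 0.106%, where 24-hour run 1 (0.1477%) lay just under 0-hour run 2 (0.1479%), and as a share of all distal signal the runs overlapped (log2 0.01).

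**Figure D5:**
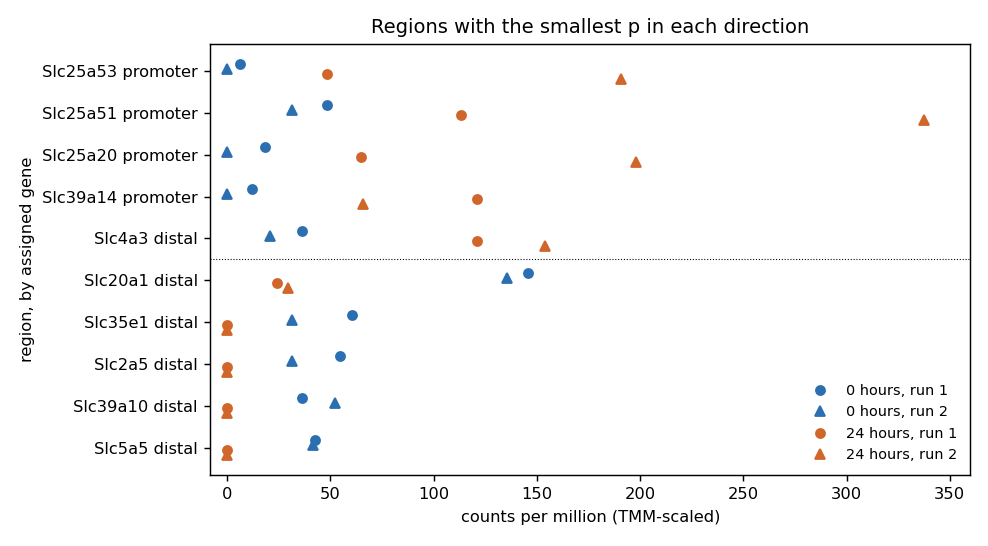
Signal in CPM (x axis), in each C1 run for the 5 carrier regions with the smallest p in each direction among those whose time-points do not overlap (y axis, by gene). Blue is 0 hours and orange is 24 hours. The regions above the dotted line are higher at 24 hours, led by Slc25a53 at 48.5 and 191 CPM against 6.06 and 0. Those below it are higher at 0 hours, and 4 of these 5 are at 0 in both 24-hour runs.

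The other carriers, of vitamins, nucleosides, monocarboxylates and organic ions, had overlapping runs in the summed signal of their promoters, though not at every single promoter. Their 24 promoter regions took 0.156% and 0.122%, then 0.181% and 0.150% (log2 0.25, and -0.22 per cell). The promoters with the most signal were those of Slc52a2, a riboflavin carrier, with 25, 10, 20 and 20 counts, Slc19a2, a thiamine carrier, with 26, 5, 20 and 21, and Slc22a5, the plasma membrane carnitine carrier, with 26, 11, 16 and 17. The folate carrier Slc19a1 had 3, 2, 6 and 15 counts at a promoter region 924 bp into the gene (log2 1.99, SE 0.95, adjusted p = 0.379), and a distal region in an intron shared with Col18a1 had 9, 8, 0 and 2. The lactate carrier Slc16a1 had 16, 6, 11 and 12 counts at its main promoter region (log2 0.11). The nucleoside carrier Slc29a1 had 2 distal regions with log2 changes of 0.28 and 0.19, both with an SE above their size. The 45 distal regions of this class took 0.175% and 0.188% and then 0.136% and 0.131% (log2 -0.44, and -0.09 as a share of all distal signal, where the runs overlapped).

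Of the carrier genes, 42 had both a promoter and a distal region. The promoter was above 0 and the distal sum below 0 on the log2 scale at 17 of them (40.5%), and the opposite held at 3 (7.14%), beside 42.7% and 10.98% of 2367 other genes. The promoter share of the signal assigned to carriers went from 57.3% and 52.7% at 0 hours to 65.0% and 73.5% at 24 hours, and for all other genes from 59.6% and 57.6% to 65.8% and 72.4%. Sugar carriers went from 56.1% and 55.7% to 73.1% and 84.4%, amino acid carriers from 53.1% and 47.8% to 59.2% and 62.5%, and ion carriers from 53.2% and 54.6% to 61.4% and 74.9%. Carriers of the other class had 47.2% and 39.4% and then 57.1% and 53.4%. Mitochondrial carriers had 75.8% and 64.2% and then 75.5% and 86.3%, where the time-points overlapped.

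Genes that act beside the solute carriers were examined in the same fit. Transporters outside the Slc families, such as the ABC transporters and ion pumps, had 82 regions at 45 of 57 listed genes, of which none passed the test, 1 had an unadjusted p under 0.05 in favour of 24 hours (1.22%, beside 5.11% of all regions) and 7 in favour of 0 hours (8.54%, beside 7%). Their 54 promoter regions had a median log2 change of 0.05, against 0.33 over all promoter regions, and their 28 distal regions one of -0.76, against -0.43 over all distal regions. Genes of amino acid response and sensing, such as the GCN2 and mTORC1 branches that adjust amino acid carriers, had 40 regions at 27 of 34 listed genes. None passed the test, 2 had an unadjusted p under 0.05 in favour of 24 hours (5%, beside 5.11% of all regions) and none in favour of 0 hours (beside 7%). The median was 0.31 over their 29 promoter regions and 0.10 over their 11 distal regions. No region was assigned to Atf4.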

How the data were processed

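Single-cell ATAC-seq was performed by the study on B3 cells in 2 C1 runs at 0 hours and 2 at 24 hours. The authors aligned reads to mm10 using Bowtie2, removed duplicates with Picard and quantified cells in peaks called from bulk samples with HOMER, and they deposited counts per region and cell without normalization. No value is above 2, and the sources used here do not state what was done with larger ones. The labels list 111 and 148 single cells, of which the matrix holds 95 and 132, and the 6 bulk samples were not analysed here. No doublet caller was run, since capture sites were inspected. Whether coordinates start at 0 or 1 was not settled, so positions may be off by 1 base.

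Counts were summed per run, and edgeR 4.0.16 (R 4.3.3) tested all 20103 regions (quasi-likelihood, TMM, Benjamini-Hochberg, threshold 0.05), with DESeq2 1.42.0 as an alternative. Every region had signal in at least 5 cells. A standard error is the log2 change divided by the square root of F. CPM is TMM-scaled. Class shares are counts over the run's total and were not tested. Distances run from region midpoint to gene start. Copies were counted with BLAST at 90% identity over 80% of a region. Named were the 3 promoters with the most signal per class, up to 5 regions each way with the smallest unadjusted p and runs apart, regions past the threshold, and 22 listed genes, of which 1 is not reported here. A few others, such as Slc45a4, Slc25a54, Slc25a26 and Slc36a1, were named after their values were seen. The carriers, lists and rules were chosen with earlier results of these data known. Alternatives were other scalings, filters, windows, start sites, a replicate block and each run left out.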

Additional observations from a re-analysis of the deposited data

How the results depend on the processing

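Few counts per region and 2 runs per time-point that differ limit these results. A missed threshold does not show that a region was unchanged. No region of the carriers was called under TMM, DESeq2, a per-cell offset, detection only, the filter of 10% of cells or the replicate block, and library totals called 1. The deviations of same-numbered runs had a correlation of -0.02. With few counts per region, this value cannot show whether same-numbered runs shared a batch. With the replicate block, 10 regions had an unadjusted p under 0.05 in favour of 24 hours (3.51%, beside 3.30% of all) and 8 gene sums in favour of 0 hours (3.77%, beside 4.34%). The cause of these moves was not tested.

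Regions with an unadjusted p in favour of 24 hours numbered 4 with the number of cells as offset (1.40%, beside 1.28% of all regions), 6 with DESeq2 (2.11% beside 2.25%) and 3 of the 69 carrier regions in at least 10% of cells (4.35% beside 5.90%). In favour of 0 hours they numbered 7 with DESeq2 (2.46% beside 3.15%) and 7 with that filter (10.1% beside 6.57%). For gene sums the numbers in favour of 24 hours were 5 (2.36% beside 1.39%), 6 (2.83% beside 2.24%) and 3 of 68 (4.41% beside 6.59%). In favour of 0 hours they were 6 with DESeq2 (2.83% beside 3.38%) and 8 with the filter (11.8% beside 5.30%). The median log2 change of promoters was -0.11 with the offset and 0.18 with the filter, and that of distal regions -0.97 and -1.14.

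As counts per cell, the promoter log2 ratio turned from positive to -0.28 for amino acid carriers, -0.0331 for mitochondrial, -0.0108 for sugar, -0.22 for other and -0.0542 for all carriers, and was 0.14 for ion carriers. The distal ratios per cell were -0.84 for amino acid, -1.63 for sugar, -0.76 for ion, -0.85 for other and -0.91 for all carriers. As a mean of single-cell shares, distal ratios were -0.55 for amino acid, -1.502 for sugar and -0.54 for other carriers, and with detection only -0.28 for amino acid carriers. A promoter window of 500 bp gave 0.31 for amino acid promoters. Start sites of all transcripts gave 0.0528 for amino acid promoters, -0.60 for ion distal and -0.51 for other distal regions.

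As a share of all promoter or distal signal, an alternative chosen after seeing the data, promoter ratios were -0.15 for amino acid carriers, 0.0790 for mitochondrial, 0.25 for ion, -0.0553 for other and 0.0671 for all carriers. Distal ratios were -0.0859 for amino acid, -0.86 for sugar, 0.0135 for ion, -0.0921 for other and -0.16 for all carriers.

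With each run left out in turn, called regions ranged from 0 to 6 higher at 24 hours and 0 to 3 higher at 0 hours, and gene sums from 0 to 10 and 0 to 4. Unadjusted, regions ranged from 7 to 35 and 8 to 28, and gene sums from 8 to 30 and 4 to 22. The promoter median ranged from 0.23 to 0.51 and the distal median from -1.02 to -0.38. Class ratios at promoters ranged from 0.07 to 0.28 for amino acid, 0.0501 to 0.74 for sugar, 0.24 to 0.56 for mitochondrial, 0.35 to 0.78 for ion, 0.08 to 0.44 for other and 0.25 to 0.53 for all carriers. At distal regions they ranged from -0.49 to -0.38 for amino acid, -1.35 to -1.05 for sugar, -0.89 to -0.10 for mitochondrial, -0.57 to -0.0941 for ion, -0.49 to -0.39 for other and -0.66 to -0.36 for all carriers. As given above, calls were most numerous without 24-hour run 1, among the carriers and among all regions.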
